A study of Mus musculus with 12 samples.

Results

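Malat1, Neat1, Kcnq1ot1, Meg3, Snhg11 and Gas5 are long RNAs best known for acting as RNA rather than through a protein, and all except Gas5 are known mainly from the nucleus. Their rows, 6 of the 56748 genes in the deposited count table, were picked by name and compared across livers of 3 genotypes, beside the share of each library's reads that fell on ribosomal RNA (rRNA). They were picked because their counts moved between these groups, so the values below describe them and carry no test. The label of long nuclear noncoding RNAs holds for most of them, with 2 exceptions: Gas5 is also well known as a cytoplasmic RNA, and the table gives Snhg11 the biotype protein_coding, against lncRNA for the other 5.

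Malat1 is the abundant RNA of nuclear speckles, the bodies that hold splicing factors. Neat1 is the scaffold on which paraspeckles assemble. Kcnq1ot1 and Meg3 are transcribed from one parental copy of imprinted domains, and Kcnq1ot1 silences neighbouring genes on the paternal chromosome. Gas5 and Snhg11 carry small nucleolar RNAs (snoRNAs) in their introns. The spliced Gas5 RNA holds only short reading frames, is cleared by nonsense-mediated decay, and belongs to the mRNAs with a pyrimidine-rich start (5′ TOP), as the ribosomal protein mRNAs do.

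RNA-seq of whole livers taken after a 24 h fast covered 3 genotypes with 4 livers each. The controls (WT) were labelled CPT1A/1B/2 triple floxed. This label differs from the study's description of the control mice in its PCR measurements, whose floxed genes were Cpt2 and Atf3. The WT livers may thus come from another mouse line than the knockouts. Genotype and line cannot be told apart in the comparisons with WT below, and the part of line was not tested. The single knockout (SKO) was labelled as lacking CPT2, a mitochondrial enzyme needed to burn long-chain fatty acids, in the liver only, and the double knockout (DKO) as lacking both CPT2 and ATF3, a stress-induced transcription factor. The deletions were driven by an albumin-Cre transgene, which is active mainly in hepatocytes, so most other cells of the liver are not its target. Ages were not given in the labels, and the study describes the sequenced mice as males. Each replicate was labelled only by a number, so the p-values below measure the spread between these livers.

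Libraries held between 14710304 and 20030055 counts. In CPM, counts brought to a common library size with the trimmed mean of M-values over all 12 livers, WT livers held Cpt2 at 199 to 252, SKO livers at 109 to 157 and DKO livers at 102 to 127. Atf3 was 1.11 to 2.16 in WT and 14.5 to 53.5 in SKO livers, and 7.93, 10.8, 13.7 and 0.271 in DKO livers 1 to 4. DKO 1 to 3 thus held more Atf3 than any WT liver and less than any SKO liver, so a full loss of Atf3 is not visible in their counts. Those counts cover the whole gene and cannot separate a deleted part. By RT-qPCR, the study reports that the rise of liver Atf3 mRNA that follows CPT2 loss was blocked in its double knockouts. Genotypes are given below as labelled. DKO 4 stood apart from the other DKO livers: the summed CPM of 10 hepatocyte markers was 113853 there against 54480 to 66436 in DKO 1 to 3, with WT at 94212 to 115681 and SKO at 54841 to 85514. SKO 3 and DKO 4 were also the only livers with high Xist counts, 18063 and 20855 against at most 19 elsewhere, and their Y-linked counts were 2 and 0, which goes against the description as males. The rRNA share of counts spanned 0.452% to 1.36% for WT, 0.713% to 1.46% for SKO and 1.40% to 2.80% for DKO livers, nearly all of it on the single gene Rn18s-rs5, and how RNA was selected for the libraries is not given in the sources used here.

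Promoter windows, from 250 bases before to 50 bases after the annotated start, are shown for the 4 genes whose window holds the letters TGACG, the core of the cAMP response element to which ATF and CREB proteins bind, because the genotypes differ in ATF3. The letters were searched on both strands and stand in capitals. The windows are RefSeq's on GRCm38.p6, and 5 of the 6 RNAs, all but Neat1, had 1 or more of them. The first is on the minus strand at chr19:5802623-5802922, the second on the minus strand at chr7:143296498-143296797, the third, Gas5's downstream start, on the plus strand at chr1:161034916-161035215, and the fourth, Meg3's upstream start, on the plus strand at chr12:109540746-109541045.
Malat1: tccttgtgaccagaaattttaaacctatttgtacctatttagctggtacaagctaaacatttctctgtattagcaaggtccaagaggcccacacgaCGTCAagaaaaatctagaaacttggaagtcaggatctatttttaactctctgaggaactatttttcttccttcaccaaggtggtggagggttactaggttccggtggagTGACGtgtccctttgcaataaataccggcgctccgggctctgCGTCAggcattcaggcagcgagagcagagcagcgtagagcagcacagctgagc
Kcnq1ot1: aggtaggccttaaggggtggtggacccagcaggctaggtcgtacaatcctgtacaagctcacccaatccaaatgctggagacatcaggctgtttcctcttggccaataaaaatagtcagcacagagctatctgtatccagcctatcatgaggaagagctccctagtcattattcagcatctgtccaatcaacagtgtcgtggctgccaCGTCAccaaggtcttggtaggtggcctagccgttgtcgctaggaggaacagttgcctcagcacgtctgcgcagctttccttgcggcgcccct
Gas5: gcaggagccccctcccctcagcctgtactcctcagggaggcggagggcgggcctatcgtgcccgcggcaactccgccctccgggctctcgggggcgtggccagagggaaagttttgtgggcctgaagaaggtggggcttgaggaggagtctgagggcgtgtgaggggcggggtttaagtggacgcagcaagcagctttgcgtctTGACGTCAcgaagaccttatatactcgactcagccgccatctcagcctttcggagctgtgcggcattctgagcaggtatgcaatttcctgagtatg
Meg3: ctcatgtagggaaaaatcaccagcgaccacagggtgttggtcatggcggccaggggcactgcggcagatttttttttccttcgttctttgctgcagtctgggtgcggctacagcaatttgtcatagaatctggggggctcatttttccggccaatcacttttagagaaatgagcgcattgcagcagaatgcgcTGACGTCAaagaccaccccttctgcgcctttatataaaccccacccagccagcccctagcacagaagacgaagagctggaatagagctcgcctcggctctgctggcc

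Malat1 held the letters 3 times, the nearest across its start. Kcnq1ot1 held them once, 38 bases before the start. In Gas5 and Meg3 the matches on the 2 strands overlapped, and lay 39 and 50 bases before the start. The Snhg11 window and the other windows of Gas5 and Meg3 held none. Over all 32851 windows of this length, 20.8% held TGACG on either strand. The other letters searched were TGANTCA (AP-1 site, with N any base, 7.81% of all windows), CACGTG (E-box, 7.15%) and TATAAA (core promoter box, 13.6%). Of these, only TATAAA occurred in the 7 windows, in Meg3's upstream one, on both strands in overlapping matches that lay 20 and 24 bases before the start. From the annotated start, Gas5 began with a run of 5 pyrimidines, ctttc, while the runs of the other windows were at most 1 base long. A match is a description of letters and not of a bound site.

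Neat1 has no window here, and its gene row sums all its forms, among them 2 that start together. GENCODE M21, the annotation of GRCm38, lists 4 transcripts, among them a long one of 20771 bases and a short one of 3004 bases. The first 552 bases of the short one match the long one up to the first mismatch, and bases shared beyond it were not counted. Only the long form builds paraspeckles. The last 60 bases of both are shown to mark where each one ends. The short one ends in a poly(A) tail and holds a poly(A) signal (AATAAA, capitals). The long one holds none there and ends in the A-rich stretch that is known to close a triple helix in place of a poly(A) tail.
Neat1 long form: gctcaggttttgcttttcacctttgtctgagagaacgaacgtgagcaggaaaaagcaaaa
Neat1 short form: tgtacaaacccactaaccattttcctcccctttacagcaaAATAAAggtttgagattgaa
Counts per gene cannot separate the forms.

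Per kilobase of gene length as the table gives it, Malat1 stood highest of the 6 in each genotype by its mean, and Kcnq1ot1 lowest. In WT livers Malat1 averaged 105 ± 28.5 CPM per kilobase (SD, n = 4, as throughout), Neat1 14.0 ± 3.33, Gas5 13.0 ± 1.48, Snhg11 1.61 ± 0.361, Meg3 0.332 ± 0.234 and Kcnq1ot1 0.0570 ± 0.00999. Neat1 and Gas5, neighbours in this order, differed there by less than their spread. In SKO livers Neat1 averaged 62.0 ± 29.0 CPM per kilobase, which overlapped Malat1 at 77.4 ± 15.1, and in DKO livers Neat1 averaged 86.8 ± 60.9 and Malat1 182 ± 30.3. Kcnq1ot1 spans 93092 bases and rested on only 69 to 266 counts a liver, and Meg3 on 19 to 222.

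**Figure D1:**
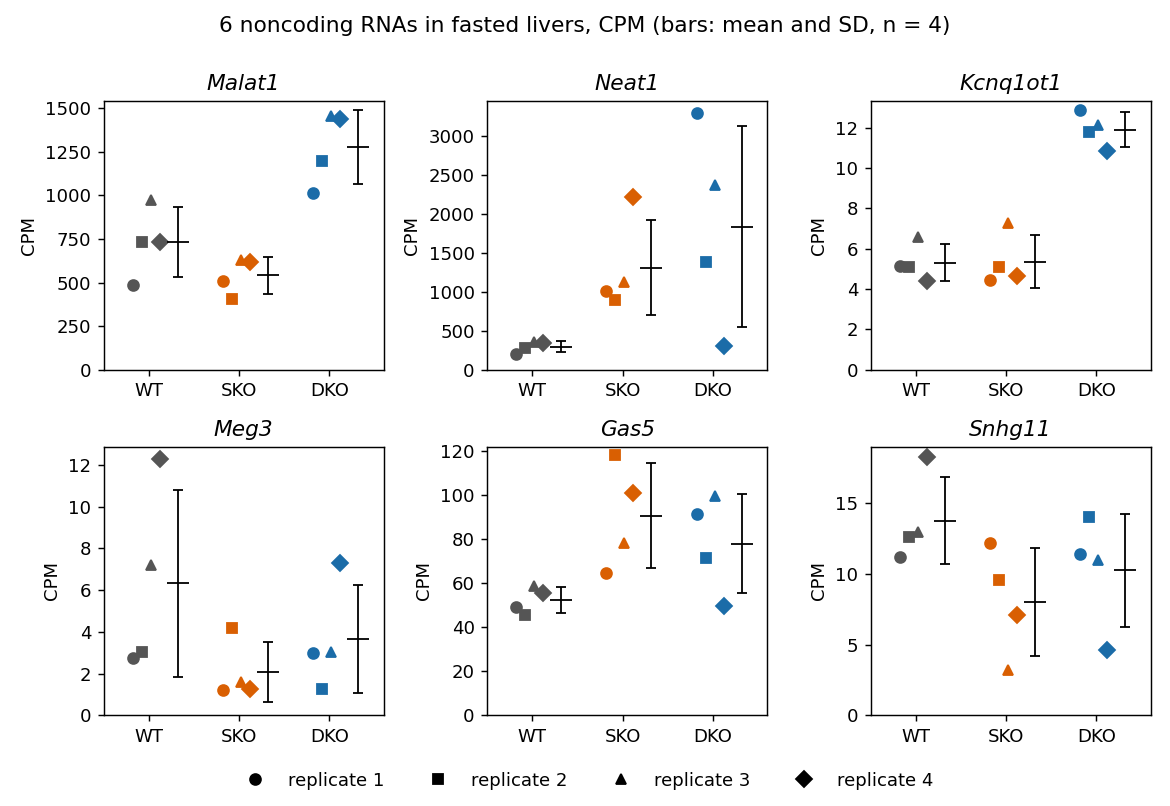
Level of each RNA in each liver, in CPM on the vertical axis, with genotype on the horizontal axis, symbols for the replicate number, and the mean and SD of 4 livers as a bar. Malat1 and Kcnq1ot1 are higher in all 4 DKO livers than in any other liver, and Neat1 is high in every SKO liver and in DKO 1 to 3, with DKO 4 at 300.1 CPM among the WT livers.

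Malat1, the speckle RNA, was the more abundant of the pair that stood high in every DKO liver. Its level was 485, 733, 974 and 734 CPM in WT livers 1 to 4, 507, 406, 631 and 619 CPM in SKO livers, and 1012, 1194, 1457 and 1435 CPM in DKO livers. The lowest DKO liver was thus only just above the highest WT liver, whereas the SKO livers lay within or below the WT range. On the log2 scale the difference was 0.81 (SE 0.22) for DKO over WT, 1.24 (SE 0.21) for DKO over SKO and -0.42 (SE 0.21) for SKO over WT. Without DKO 4 the first became 0.75 (SE 0.20) and the second 1.16 (SE 0.20).

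Kcnq1ot1, the imprinted antisense RNA, separated DKO livers from the others with the least spread. Its level was 5.16, 5.09, 6.60 and 4.37 CPM in WT livers, 4.42, 5.12, 7.26 and 4.64 CPM in SKO livers, and 12.9, 11.8, 12.1 and 10.8 CPM in DKO livers. No DKO liver came near the rest, and WT and SKO livers were intermixed. DKO livers averaged 11.9 ± 0.848 CPM against 5.31 ± 0.930 in WT and 5.36 ± 1.30 in SKO, which gave log2 differences of 1.18 (SE 0.17) for DKO over WT, 1.15 (SE 0.20) for DKO over SKO and 0.03 (SE 0.22) for SKO over WT. SKO 3, one of the livers with Xist counts, was the highest outside the DKO group, and leaving it out gave 1.33 (SE 0.18) for DKO over SKO. Kcnq1, on the other strand, contains the whole of Kcnq1ot1. It was at 0.608 to 2.88 CPM over all livers and its fold change did not pass in any comparison, but without a stated strand setting its reads and those of Kcnq1ot1 cannot be told apart.

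Malat1 and Kcnq1ot1 were 2 of 6 RNAs whose groups did not overlap between DKO and WT, where 16.9% of the 14448 genes tested did not overlap, and the same 2 of 6 between DKO and SKO, where 4.00% of 14363 genes did not. The RNAs were picked on these contrasts, so nothing is read from these counts. Over the 12 livers, which fall into genotype groups, their log2 CPM went together with Pearson's r = 0.82.

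The rRNA share was 1.40%, 2.69%, 1.80% and 2.80% of counts in DKO 1 to 4, above every other liver in DKO 2 to 4, while DKO 1 lay below SKO 4. Other livers had a share like that of DKO 1: at 1.40% rRNA its Malat1 level was 1012 CPM, against 974 CPM in WT 3 with 1.36%, 619 CPM in SKO 4 with 1.46% and 507 CPM in SKO 1 with 1.32%. Kcnq1ot1 in the same 4 livers was 12.9, 6.60, 4.64 and 4.42 CPM. Within each genotype Malat1 was lowest in the liver with the least rRNA, WT 1, SKO 2 and DKO 1. Kcnq1ot1 was highest in the liver with the most rRNA within WT and in the liver with the least within DKO.

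With the log2 rRNA share as a covariate, the Malat1 difference became 0.34 (SE 0.25) for DKO over WT and 0.93 (SE 0.32) for DKO over SKO, and that of Kcnq1ot1 1.20 (SE 0.25) and 1.41 (SE 0.31). The group and the share nearly coincide, so for both RNAs the part of rRNA content in the level and the part of genotype cannot be told apart. Few other RNAs that carry rRNA-like letters or lack a poly(A) tail could be tested beside them, 2 of the former and 1 of the latter. Lars2, a mitochondrial leucyl-tRNA synthetase whose gene model holds rRNA-like sequence, rose in DKO over WT by 1.57 (SE 0.30) on the log2 scale, with an adjusted p of 0.0182 by edgeR's quasi-likelihood test, and over SKO by 1.63 (SE 0.19), adjusted p 0.0283. The other gene with such sequence, AY036118, was at 0.05 (SE 0.22), adjusted p 0.896, in DKO over WT and at -0.16 (SE 0.18), adjusted p 0.941, in DKO over SKO. The small nuclear RNA Rn7sk, which has no poly(A) tail, was at 0.417 to 2.09 CPM in WT and 2.47 to 4.19 CPM in DKO livers and rose by 1.88 (SE 0.49), adjusted p 0.0407, while over SKO it was at 1.43 (SE 0.34), adjusted p 0.396. In DKO over WT, Lars2 no longer passed without WT 2, WT 4, DKO 1 or DKO 2, and Rn7sk passed only without WT 3 or DKO 4. In DKO over SKO, Lars2 passed only without DKO 4.

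Gene models without a settled biotype (TEC) held 0.0664% to 0.0861% of counts in DKO livers, against 0.0562% to 0.0578% in WT and 0.0469% to 0.0634% in SKO livers. In DKO over SKO none of 235 tested passed, with a median log2 difference of 0.39, against 0.01 over all genes. In DKO over WT 12 of 257 tested rose and 2 fell, with a median log2 difference of 0.25, against a median of 0.03 over all genes. The share of them that passed there was 5.45%, against 10.5% of all genes, and this difference was not tested. Without WT 2 the counts were 2 and 0, or 0.647% against 1.63% of all genes in that fit, and without DKO 4 they were 23 and 18, or 15.5% against 35.9%. Other lncRNA genes rose in 73 and fell in 44 of 1190 tested there, with a median of 0.07, against the same 10.5% of all genes at an adjusted p of 0.05. The total of these lncRNA calls was 357 without DKO 4 and between 23 and 69 without any other liver. As a description, Malat1 and Kcnq1ot1 sat at the 92.5th and 96.3rd percentile of all log2 differences in DKO over WT. They were picked on these contrasts, so nothing is read from their rank.

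**Figure D2:**
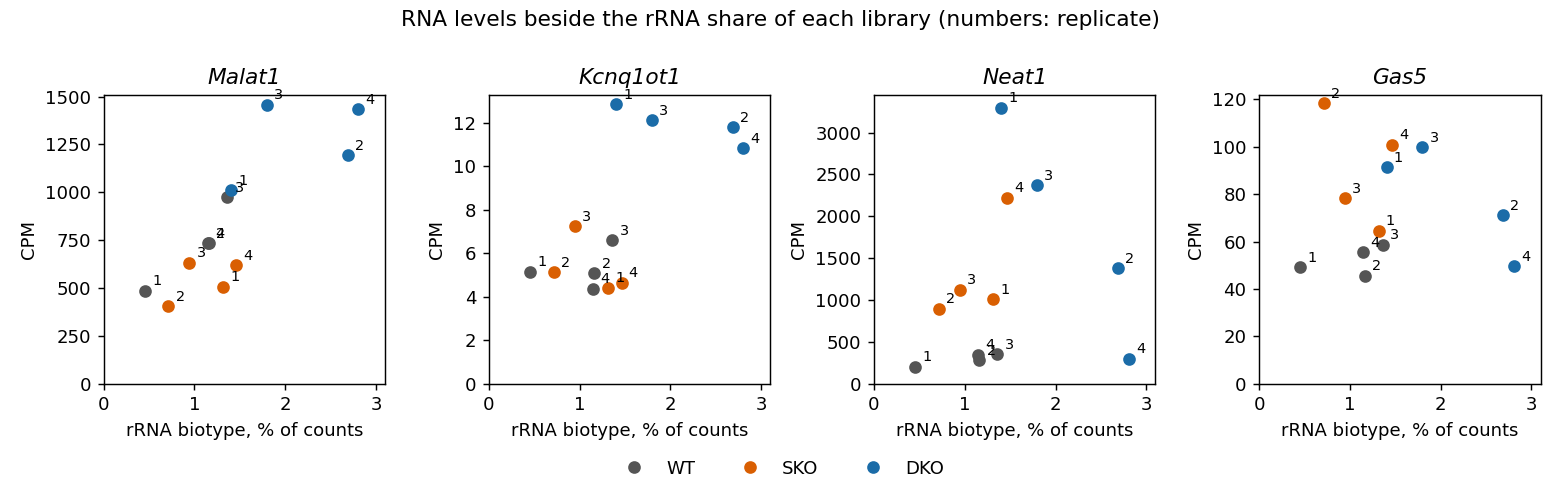
Level of 4 of the RNAs in CPM on the vertical axis against the rRNA biotype share in percent of counts on the horizontal axis, 1 point for each of 12 livers, coloured by genotype and numbered by replicate. DKO 2 to 4 lie furthest right, DKO 1 lies just left of SKO 4, Malat1 is high in all 4 DKO livers, and Neat1 and Gas5 in DKO 4 lie at WT levels although its rRNA share is the highest, 2.80%.

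Neat1, the paraspeckle scaffold, followed another pattern, with high levels in every SKO liver. Its level was 204, 278, 354 and 348 CPM in WT livers, 1006, 897, 1125 and 2223 CPM in SKO livers, and 3296, 1379, 2374 and 300.1 CPM in DKO livers. Every SKO liver and DKO 1 to 3 were above all WT livers, while DKO 4 lay inside the WT range, 11.0-fold under the highest DKO liver. The log2 difference was 2.16 (SE 0.29) for SKO over WT, 2.65 (SE 0.59) for DKO over WT and 0.49 (SE 0.57) for DKO over SKO. Without DKO 4 the DKO mean went from 1837 ± 1290 to 2350 ± 959 CPM (n = 3), and the log2 differences to 3.00 (SE 0.28) over WT and 0.84 (SE 0.35) over SKO.

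Gas5, the host of snoRNAs, moved with Neat1 (r = 0.84 over the 12 livers, which share genotype groups). Its level was 49.2, 45.6, 58.6 and 55.4 CPM in WT livers, 64.6, 118, 78.4 and 101 CPM in SKO livers, and 91.3, 71.2, 99.7 and 49.5 CPM in DKO livers. Again all SKO livers and DKO 1 to 3 were above the WT range and DKO 4 was within it. The log2 difference was 0.81 (SE 0.18) for SKO over WT and 0.59 (SE 0.21) for DKO over WT, or 0.75 (SE 0.14) without DKO 4, and -0.22 (SE 0.25) for DKO over SKO. Neat1 and Gas5 were 2 of 6 RNAs whose groups did not overlap between SKO and WT, where 33.0% of the 14261 genes tested did not, and the choice of the RNAs used this contrast too.

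Marker levels of several cell types differed between the same livers, and their counts are set against the share of all genes that passed, which was 32.1% in SKO over WT, 10.5% in DKO over WT and 35.9% in DKO over WT without DKO 4. In SKO over WT, 6 of 10 hepatocyte markers fell and none rose by the adjusted test. In DKO over WT 1 of 10 fell with all livers, a share like that of all genes, and 7 of 10 without DKO 4. In DKO 4, where Neat1 and Gas5 were at WT levels, the summed hepatocyte markers were too, whereas the summed macrophage and stellate cell markers were above the WT range. In whole tissue, fewer cells of a type and less RNA per cell cannot be told apart. Summed macrophage markers were 148 to 227 CPM in DKO 1 to 3 and 517 CPM in DKO 4, against 248 to 492 in WT and 233 to 566 in SKO livers. Of 10 macrophage markers, 1 fell in DKO over WT with all livers, and without DKO 4 8 fell and 1 rose, with a median of -0.96. In SKO over WT 1 of 10 rose, Cd68, a lysosomal protein gene, by 2.28 (SE 0.28), adjusted p 0.000107. Summed cholangiocyte markers were 29.2 to 35.3 CPM in WT, 7.60 to 15.0 CPM in SKO livers, 10.1 to 19.5 CPM in DKO 1 to 3 and 32.5 CPM in DKO 4. Of 5 tested, Spp1 fell in SKO over WT by 1.44 on the log2 scale (SE 0.23), adjusted p 0.000658, and Sox9 by 1.87 on the log2 scale (SE 0.32), adjusted p 0.0011. Summed stellate cell markers were 290 to 353 CPM in WT, 392 to 550 CPM in SKO and 365 to 474 CPM in DKO livers, and 2 of 10 rose in SKO over WT, a smaller share than of all genes, Dcn by 0.61 (SE 0.14), adjusted p 0.0063, and Ecm1 by 0.55 (SE 0.15), adjusted p 0.0155, a call lost without WT 1 or WT 4. Of 5 erythroid genes tested in SKO over WT, the globin genes Hbb-bs and Hba-a1 rose by 1.33 (SE 0.41), adjusted p 0.0291, and 1.27 (SE 0.37), adjusted p 0.0211, each in 4 of 8 fits with 1 liver left out, and Alas2, of haem synthesis, fell by 1.23 on the log2 scale (SE 0.35), adjusted p 0.0181, a call lost without SKO 2. The part of cell content in the levels of Neat1 and Gas5 was not tested.

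The other noncoding snoRNA hosts were read from a list that does not hold Gas5 or Snhg11. In SKO over WT, 12 of 17 tested rose and 1 fell, with a median log2 difference of 1.12 against 0.03 over all genes, where 32.1% of genes passed. Rian fell by 3.26 on the log2 scale (SE 0.40), adjusted p 0.000107. Snhg10 rose most, from 0.191 to 0.469 CPM in WT to 2.90 to 33.0 CPM in SKO livers, by 5.90 (SE 0.71), adjusted p 9.93e-05. Snhg6 rose by 1.56 (SE 0.22), adjusted p 0.000267, Epb41l4aos by 1.56 (SE 0.24), adjusted p 0.000439, and Snhg18 by 2.92 (SE 0.49), adjusted p 0.00091. In DKO over WT, 9 of 16 rose and none fell, or 56.2% against 10.5% of all genes, with a median of 0.99, among them Epb41l4aos by 1.35 (SE 0.26), adjusted p 0.0176, and Snhg1 by 1.30 (SE 0.25), adjusted p 0.0182. These 9 calls depended on the livers in the fit: without DKO 4, 12 of 17 rose and 2 fell, where 35.9% of all genes passed, and between 0 and 6 passed when any other liver was left out. Without WT 2 none passed, where 1.63% of all genes did, while the median stayed at 0.95. In DKO 4 Snhg10 was at 0.379 CPM and Snhg1 at 12.3 CPM, against 16.3 to 21.3 and 22.3 to 30.1 CPM in DKO 1 to 3.

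Ribosomal protein mRNAs share the 5′ TOP class with Gas5. Their genes were listed by name, so the list also holds Rps19bp1 and like-named relatives such as Rpl7l1 and Rpl22l1, which need not belong to that class. Of this list, 66 of 82 tested rose in SKO over WT and none fell, or 80.5% against 32.1% of all genes, with a median of 0.68. The smallest adjusted p-values were those of Rpl17 at 1.15 (SE 0.16), adjusted p 0.000213, Rpl12 at 1.30 (SE 0.20), adjusted p 0.000522, and Rpl22l1 at 1.31 (SE 0.20), adjusted p 0.000531. With 1 liver left out, the count in SKO over WT lay between 44 (without WT 2) and 71 (without SKO 1). In DKO over WT 13 of 82 rose and none fell, or 15.9% against 10.5% of all genes, with a median of 0.36. Without DKO 4 60 rose, or 73.2% against 35.9%, but with any other liver left out at most 2 passed. Without WT 2 none passed, against 1.63% of all genes, and the median was 0.33. In DKO over SKO no snoRNA host and no ribosomal protein gene passed, with medians of -0.10 and -0.28, where 0.0209% of genes passed, 932 genes had an unadjusted p under 0.05, and DESeq2 called 91 genes.

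Nonsense-mediated decay factors, which clear spliced Gas5, rose in 5 of 17 tested in SKO over WT, and 1 fell, a share called of 35.3%, near the 32.1% of all genes. Smg5 rose by 0.76 (SE 0.16), adjusted p 0.00357, Upf3a by 0.70 (SE 0.16), adjusted p 0.00693, and the translation release factor Etf1 by 0.51 (SE 0.13), adjusted p 0.0122, while Smg6, an endonuclease, fell by 0.40 on the log2 scale (SE 0.12), adjusted p 0.0289. The Smg6 call passed in 3 of 8 fits with 1 liver left out, and 3 of the 17 factors passed without WT 2, WT 3 or WT 4. None of 17 passed in DKO over WT with all livers, and 4 rose and 1 fell without DKO 4, or 29.4% against 35.9% of all genes in that fit.

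The mRNAs of proteins that sit with Neat1 and Malat1 in nuclear bodies were read from 2 lists. Of 23 paraspeckle proteins, 5 rose in SKO over WT and none fell, or 21.7% against 32.1% of all genes, with a median log2 difference of 0.20. These were Smarca4 at 0.39 (SE 0.12), adjusted p 0.0313, Pspc1 at 0.86 (SE 0.28), adjusted p 0.036, Hnrnpa1 at 0.52 (SE 0.18), adjusted p 0.0462, Matr3 at 0.44 (SE 0.16), adjusted p 0.0478, and Tardbp at 0.41 (SE 0.15), adjusted p 0.0493. Their calls were close to the threshold, and none of the 23 passed without WT 1, WT 3, WT 4 or SKO 4, while 1 passed without WT 2 and 2 without SKO 2 or SKO 3. None passed in DKO over WT with all livers, and 8 rose without DKO 4, or 34.8% against 35.9% of all genes in that fit. Of 35 nuclear speckle proteins tested, 3 rose in SKO over WT and 1 fell, or 11.4%, and 2 rose in DKO over WT, or 5.71% against 10.5% of all genes. Ddx39b, an RNA helicase, rose in both, by 0.66 (SE 0.13), adjusted p 0.00232, and by 0.69 (SE 0.18), adjusted p 0.0426, and so did the splicing factor Srsf6, by 0.49 (SE 0.14), adjusted p 0.0226, and by 0.47 (SE 0.13), adjusted p 0.0463. The Srsf6 call in SKO was lost without WT 1, WT 2 or WT 4, and both DKO calls were lost when any liver other than DKO 4 was left out.

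**Figure D3:**
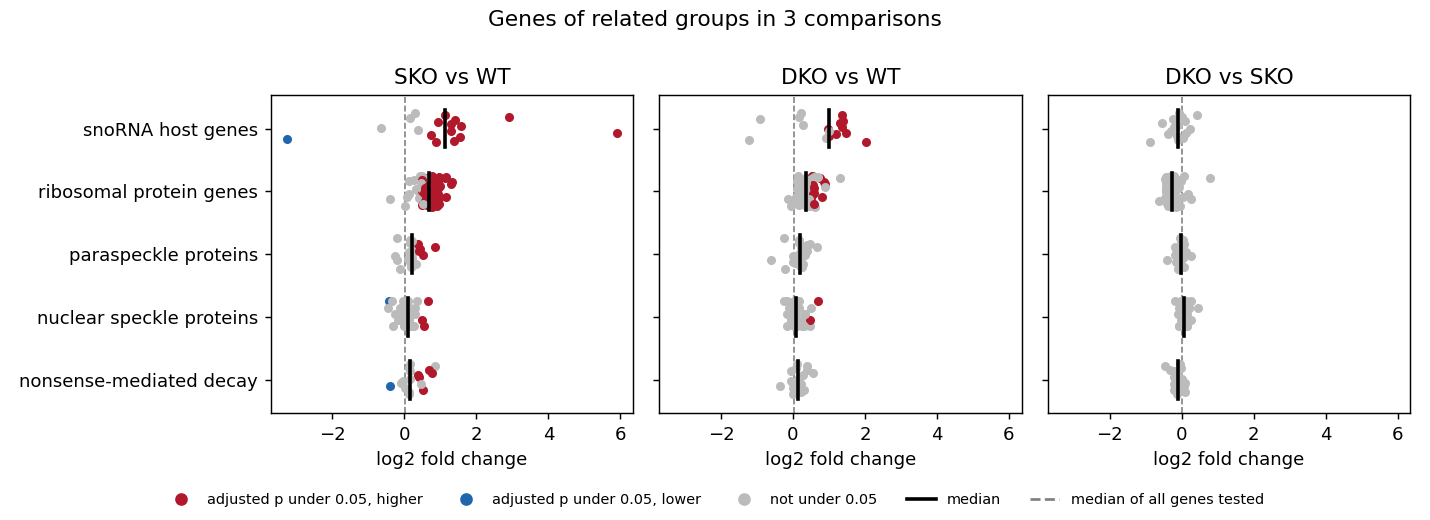
Log2 fold change of each gene of 5 groups in 3 comparisons, coloured by an adjusted p under 0.05, with the group median as a black bar and the median of all genes tested as a dashed line. The snoRNA hosts and ribosomal protein genes lie to the right in SKO over WT, with medians of 1.12 and 0.68, and the paraspeckle and speckle proteins have medians of 0.20 and 0.10 there, against 0.03 over all genes.

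Meg3, the imprinted RNA of the Dlk1-Dio3 domain, varied widely within each genotype. Its level was 2.76, 3.06, 7.18 and 12.3 CPM in WT livers, 1.22, 4.20, 1.61 and 1.28 CPM in SKO livers, and 3.00, 1.28, 3.04 and 7.31 CPM in DKO livers. The 3 groups overlapped, and the highest WT liver stood 4.45-fold above the lowest. The log2 difference was -1.57 (SE 0.53) for SKO over WT and -0.77 (SE 0.59) for DKO over WT, and with 1 liver left out it went from -1.04 without WT 4 to -2.18 without SKO 2 in the first and from -0.23 without WT 4 to -1.35 without DKO 4 in the second. Rian, a noncoding gene 32077 bases away on the same strand in this domain, was at 1.46 to 2.94 CPM in WT and at 0.128 to 0.279 CPM in SKO livers, and at 0.0484, 0.0608, 0.464 and 3.14 CPM in DKO 1 to 4. DKO 4 was thus above the WT range for Rian, whereas for Meg3 DKO 1, 3 and 4 all lay within it. Dlk1-Dio3 genes had little other signal, with 2 of 7 tested in SKO over WT, Rian and Wdr25, the latter at 0.16 (SE 0.26), adjusted p 0.68.

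Snhg11, the other snoRNA host, was lowest in the 2 livers with Xist counts. Its level was 11.2, 12.6, 12.9 and 18.2 CPM in WT livers, 12.2, 9.57, 3.21 and 7.10 CPM in SKO livers, and 11.4, 14.0, 11.0 and 4.60 CPM in DKO livers. SKO 3 and DKO 4 were the lowest of all 12, and the groups overlapped. The log2 difference was -0.76 (SE 0.33) for SKO over WT and -0.41 (SE 0.30) for DKO over WT. Restricted to livers with Y-linked counts, it was -0.49 (SE 0.23) and -0.17 (SE 0.18), with means of 9.62 ± 2.54 CPM in 3 SKO and 12.1 ± 1.62 CPM in 3 DKO livers against 13.7 ± 3.08 CPM in 4 WT livers.

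**Figure D4:**
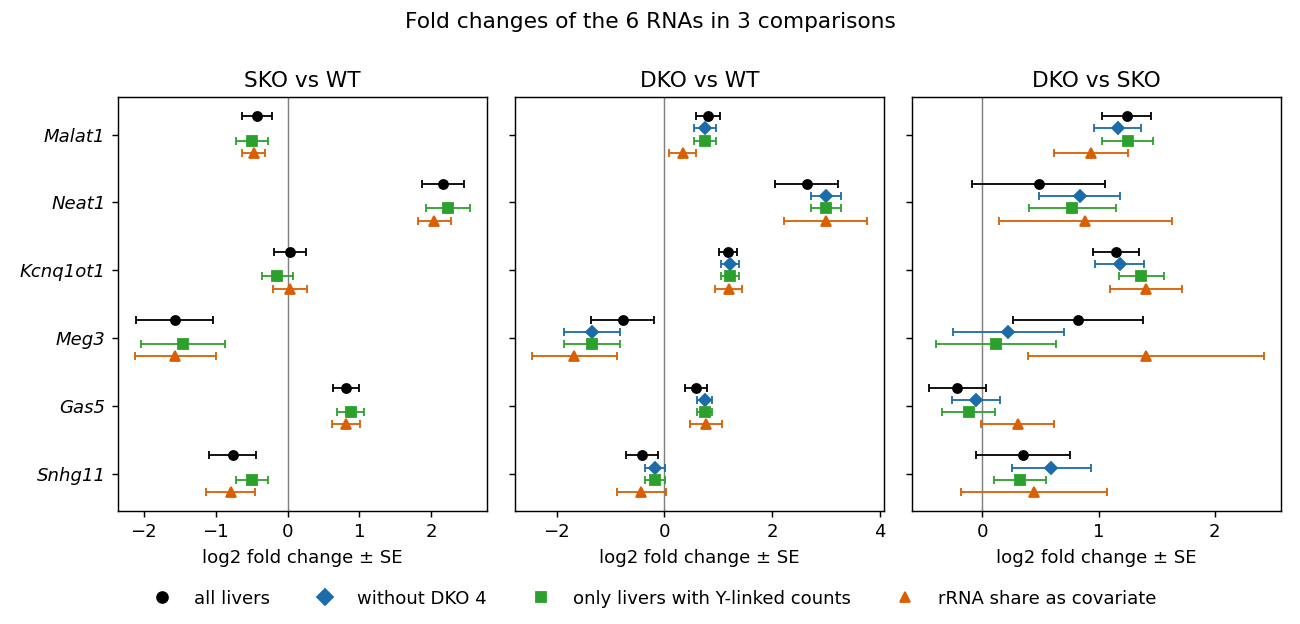
Log2 fold change of each RNA in 3 comparisons on the horizontal axis, with its standard error as a bar, from all livers, without DKO 4 (where that liver is in the comparison), from livers with Y-linked counts only, and with the rRNA share as a covariate. The Malat1 value in DKO over WT goes from 0.81 to 0.34 with the covariate, and that of Kcnq1ot1 is between 1.18 and 1.22 in these 4 fits. Genotype and rRNA share nearly coincide, so the fit with the covariate cannot tell their parts apart for either RNA.

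The genes whose log2 CPM followed each RNA most closely over the 12 livers were taken from 9792 genes averaging at least 5 CPM. They are a description, since the livers share genotypes. Neat1 was followed by Snhg17 (r = 0.97), 1600012H06Rik (0.96) and Polr1b (0.96), a subunit of RNA polymerase I. Polr1b was at 21.6 to 26.7 CPM in WT and 29.1 to 39.2 CPM in SKO livers, and at 23.3 CPM in DKO 4 against 39.6 to 44.8 CPM in the other DKO livers. Gas5 was followed by Zfas1 (0.98), itself a snoRNA host, Chmp6 (0.97) and the ribosomal protein gene Rpl36 (0.97). The genes most like Malat1 were Mcc (0.88), Gm43189 (0.86) and Sphk2 (0.83), and those most like Kcnq1ot1 were Fam193a (0.89), Rassf4 (0.89) and Arid4b (0.88). Of these, Rassf4 was at 3.24 to 10.3 CPM in WT and SKO livers and at 12.9 to 37.1 CPM in DKO livers. Snhg11 was followed by Cyp2d9 (0.90) and Mup20 (0.89), liver genes with higher expression in males, and by Kdm5d (0.89), which lies on the Y chromosome. Cyp2d9 was at 75.3 CPM in SKO 3 and 52.1 CPM in DKO 4, against 722 CPM or more in every other liver. Meg3 averaged under 5 CPM and was not compared.

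In the genome coordinates of the table, which match GRCm39, Malat1 lies on chromosome 19 from 5845717 to 5852704 and Neat1 22032 bases away on the same strand, from 5874736 to 5895898, yet their levels over the 12 livers went together with r = 0.18 only. Kcnq1ot1 lies on chromosome 7 from 142757195 to 142850286, Meg3 on chromosome 12 from 109506879 to 109538165, Snhg11 on chromosome 2 from 158217558 to 158228071 and Gas5 on chromosome 1 from 160861992 to 160866116. Within 100 kb of the 6 genes, 136 neighbours were listed, of which 36 were tested against WT. In SKO over WT 4 rose and 6 fell, and in DKO over WT 6 rose and 1 fell, where a gene near 2 of the RNAs, or one of the 6 near another, counts for each. Malat1 and Neat1 themselves are thus in these counts, and over all genes 32.1% passed in the first comparison and 10.5% in the second. Slc25a45, of the mitochondrial carrier family and near both Malat1 and Neat1, fell by 1.89 on the log2 scale (SE 0.20) in SKO, adjusted p 3.57e-05. Snhg17, opposite in strand to Snhg11 and 14057 bases away, rose by 0.73 (SE 0.15) in SKO, adjusted p 0.00282, and by 0.96 (SE 0.22) in DKO, adjusted p 0.0293. With 1 liver left out, the DKO call of Snhg17 passed only without WT 3 or DKO 4. Beside Gas5, Serpinc1, which encodes antithrombin, fell by 0.81 on the log2 scale (SE 0.13) in SKO, adjusted p 0.000683. None of 33 neighbours tested passed in DKO over SKO.

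Genes that overlap the 6 on the other strand could share reads with them. Gm37376 overlaps Malat1 by 453 bases and did not pass the filter on low counts. Frmd8os overlaps Neat1 by 248 bases and was at 0.261 to 2.13 CPM, and Zbtb37 overlaps Gas5 by 428 bases and was at 13.0 to 27.4 CPM. Frmd8os and Zbtb37 did not pass in any comparison. In the Kcnq1 domain, 2 of 13 genes tested rose and 2 fell in SKO over WT, a share called of 30.8%, near the 32.1% of all genes. Osbpl5, a lipid transfer protein gene, fell by 1.36 on the log2 scale (SE 0.29), adjusted p 0.00385, and Tnfrsf23 rose by 2.67 (SE 0.61), adjusted p 0.00573. Without WT 4, 2 of the 13 passed. In DKO over WT Osbpl5 fell by 1.21 on the log2 scale (SE 0.30), adjusted p 0.0347, and Tssc4 rose by 0.58 (SE 0.16), adjusted p 0.0471, both lost when any liver other than DKO 4 was left out. Cdkn1c, a cell cycle inhibitor that Kcnq1ot1 is known to silence, spanned 1.27 to 2.10 CPM among WT, 1.03 to 2.23 CPM among SKO and 0.790 to 5.03 CPM among DKO livers.

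Among 18 other well-known long noncoding RNAs tested, 3 rose and 3 fell in SKO over WT, or 33.3% against 32.1% of all genes, and of 19 tested in DKO over WT 3 rose and 1 fell, or 21.1% against 10.5%. The count of 4 was between 1 and 7 with 1 liver left out, and the 7 without DKO 4 were 36.8% against 35.9% of all genes. Gm15441, antisense to the gene of the redox regulator Txnip, rose in SKO from a mean of 11.2 to 502 CPM, by 5.50 (SE 0.30), adjusted p 6.94e-07. In DKO livers it was at 436, 388, 371 and 16.6 CPM, so DKO 4 was again at the WT level, and its call in DKO over WT, at 4.76 (SE 0.83), adjusted p 0.0136, was lost without WT 1 or WT 2. Mir22hg fell in both, by 0.58 on the log2 scale (SE 0.16), adjusted p 0.0156, and by 1.03 on the log2 scale (SE 0.12), adjusted p 0.00477, and in this case DKO 4, at 52.2 CPM, was among the other DKO livers at 47.9 to 56.0 CPM. The X-linked Firre was at 58.6 to 92.7 CPM over all livers. None passed in DKO over SKO.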

How the data were processed

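Counts were analysed for livers of 12 mice, 4 a genotype. The authors deposited raw counts per Ensembl gene, and the submitters' processing notes name HISAT2 and GRCm38 (mm10), whereas the coordinates in the table match GRCm39. The counting program, annotation release and strand setting are not given in the sources used here. The authors' FPKM values and their own fold changes and p-values were not used. Each pair of genotypes was fitted apart with edgeR 4.0.16 (filterByExpr, trimmed mean of M-values, quasi-likelihood F-test, Benjamini-Hochberg adjustment over all genes tested, threshold 0.05) in R 4.3.3, and the procedure was tested on simulated data. Standard errors are the log2 fold change over the root of F. CPM values were scaled over all 12 livers, and likeness was Pearson's r of log2 CPM with a prior count of 2. No 2 libraries of a genotype were copies (lowest chi-square per degree of freedom over 18 pairs, 18.5).

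The members and all gene lists were chosen with earlier results of these data known. Named besides the 6 RNAs were Cpt2, Atf3, sex-linked genes, up to 5 genes of a list by smallest p (all genes of lists of 10 or fewer), neighbours that overlapped or passed within 100 kb, and the 3 genes most alike to each RNA over 5 CPM. Cdkn1c, Firre and single levels of other listed genes were added after their values were seen. A neighbour that passed stays in the counts and is not reported here. Alternatives were DESeq2 1.42.0, other scaling and filters, 1 fit of all livers, covariates, and leaving out each liver.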

Additional observations from a re-analysis of the deposited data

Results flagged for a closer look

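Meg3 in SKO 2 stood far from the other SKO livers: it was at 4.20 CPM there, against 1.22 to 1.61 CPM in the other 3, a gap of 0.870 of the group's whole range, past Dixon's limit for 4 livers. Of 24 sets of 4 livers examined in this way, chance would give about 1.2.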

How the results depend on the processing

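The log2 differences of the 6 RNAs moved by less than 1 SD between livers in 302 of their alternative fits and by more in 4, all with the rRNA share as a covariate: Malat1 went to 0.34 in DKO over WT and 0.93 in DKO over SKO, Kcnq1ot1 to 1.41 and Gas5 to 0.30 in DKO over SKO. The cause was not tested. In SKO over WT, 4576 genes and 323 lncRNA genes passed, and every alternative was within 1.5 times. In DKO over WT, 1510 genes passed in all, against 2508 with DESeq2, 5253 from livers with Y-linked counts, 5168 with Xist presence as a covariate, 10 with the rRNA share as a covariate and 244 to 5253 with 1 liver left out. The lncRNA count of 117 became 233, 357, 330, 2 and 23 to 357 in the same order. In DKO over SKO, 3 genes passed, against 91 with DESeq2, 35 without a filter on low counts, 21 from livers with Y-linked counts, 9 with Xist presence, 0 with the rRNA share and 0 to 15 with 1 liver left out. There the lncRNA count of 0 became 16, 7, 1 in the fit of all 12 livers, 1 from livers with Y-linked counts and 0 to 1 with 1 liver left out. Replicate numbers did not pair the livers: deviations of same-numbered livers correlated between -0.435 and 0.157, and 3 of 24 liver comparisons were best with their own number. With the replicate number as a block, DKO over WT gave 691 genes and 54 lncRNA genes, and DKO over SKO 0.

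Counts were lowest for Meg3, at 19 to 222 a liver, Snhg11, at 62 to 329, and Kcnq1ot1, at 69 to 266. The fits that leave out DKO 4 and those from livers with Y-linked counts in DKO over WT are the same fit.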
